A study of Mus musculus with 2 samples.

Results

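The AP-1 subunit genes were taken as the rows of the count table whose symbol was Fos, Fosb, Fosl1, Fosl2, Jun, Junb, Jund, Atf3, Jdp2 or Batf3. All 10 were found among 55487 rows. RNA was sequenced from MC3T3-E1 cells, a mouse calvarial line with osteoblast features, in 1 library from cells given 10 nM parathyroid hormone (PTH) for 1 h and 1 library from untreated cells, also labelled 1 h. Both cultures were kept in medium with 10% fetal bovine serum, and no other agent or genetic change is named for either. PTH is a bone-acting peptide hormone whose receptor on osteoblasts raises cyclic AMP. With 1 library per condition no difference has a replicate check, no p-value was computed, and each ratio compares these 2 libraries, not the conditions.

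AP-1 is a family of transcription factors that bind DNA as pairs of basic leucine zipper (bZIP) proteins. FOS proteins do not pair with each other and need a JUN partner, whereas JUN proteins can also pair among themselves. Atf3, Jdp2 and Batf3 encode further bZIP partners of JUN proteins, and these often act as repressors. Many of the genes are immediate-early genes, transcribed within minutes of a stimulus without new protein synthesis, and several FOS and JUN proteins are regulators of bone formation in mice. In osteoblasts PTH is known to induce Fos through cyclic AMP, protein kinase A and a CREB-binding cyclic AMP response element (CRE) in its promoter.

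The promoters below are shown because they belong to the genes with the highest ratios of PTH to untreated reads, Fos and Fosl2, and to those with the lowest, Jun and Atf3. Each is the 250 bases before the annotated start in RefSeq (GRCm38.p6), 5′ to 3′ on the gene's strand. Capitals mark TGACG, the conserved core of a CRE, on either strand (CGTCA on the other), the related TGACATCA, and TATAA read on the gene's strand.

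Fos, chr12:85473640-85473889, plus strand: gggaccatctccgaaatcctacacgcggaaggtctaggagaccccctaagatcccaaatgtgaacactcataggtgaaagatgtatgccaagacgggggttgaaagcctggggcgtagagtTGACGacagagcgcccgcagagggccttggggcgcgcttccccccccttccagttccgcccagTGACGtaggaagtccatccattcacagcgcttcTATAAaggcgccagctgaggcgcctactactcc

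Fosl2, chr5:32136222-32136471, plus strand: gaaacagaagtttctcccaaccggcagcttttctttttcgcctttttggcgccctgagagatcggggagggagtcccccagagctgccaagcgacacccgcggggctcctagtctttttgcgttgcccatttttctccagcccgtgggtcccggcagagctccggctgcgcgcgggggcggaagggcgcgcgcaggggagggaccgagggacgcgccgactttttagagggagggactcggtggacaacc

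Jun, chr4:95052223-95052472, minus strand: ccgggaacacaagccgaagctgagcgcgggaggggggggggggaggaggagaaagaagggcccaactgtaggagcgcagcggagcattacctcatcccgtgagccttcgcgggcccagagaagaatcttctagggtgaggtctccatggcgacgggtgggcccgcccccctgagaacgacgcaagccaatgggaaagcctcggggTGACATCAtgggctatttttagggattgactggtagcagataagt

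Atf3, chr1:191183334-191183583, minus strand: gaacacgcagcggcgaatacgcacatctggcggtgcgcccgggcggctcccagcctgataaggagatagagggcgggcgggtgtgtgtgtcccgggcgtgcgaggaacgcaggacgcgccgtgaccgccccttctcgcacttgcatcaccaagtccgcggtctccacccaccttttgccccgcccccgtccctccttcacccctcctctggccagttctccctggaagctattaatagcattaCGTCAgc

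RefSeq promoters were matched for 9 of the 10 genes, with 3 starts for Jdp2; Fosl1 had no entry. TGACG on either strand stood in 17.8% of all 32851 promoter windows of this length. The Fos window held it at positions -129 to -125 and -66 to -62 from the start, beside a TATAA at -33 to -29. The Fosl2 window held none of the motifs searched. The Junb window held TGACG at -106 to -102, the Fosb window at -60 to -56 and the second Jdp2 window at -114 to -110. The Atf3 window held it on the other strand at -7 to -3. The Jun window held no TGACG and had TGACATCA at -45 to -38, a sequence present in 2.93% of all windows. No window of the 9 genes held the full CRE TGACGTCA (1.55% of all windows) or the AP-1 site TGANTCA (6.75%). None held a CArG box, the site bound by SRF (1.47%). Both strands were searched, and TGACG is part of TGACGTCA. Only the 250 bases before each start were searched, so sites farther upstream, in Fos or any other gene, were not looked for. TGACG thus stood in windows of genes on both sides of a ratio of 1, Fos and Junb above it and Atf3 and Fosb below it, and was missing from windows on both sides, Fosl2 above and Jun below. The RefSeq start of Atf3 lies 34706 bases inside the GENCODE gene, that of Fosl2 671 bases and that of Batf3 567 bases inside it. The Jdp2 starts lie 78, 389 and 991 bases inside, and that of Jund 1210 bases outside. The windows of these genes thus describe only some of the possible starts. The Fosl2 window lies wholly inside the GENCODE gene, so its lack of motifs says nothing of the sequence before the GENCODE start.

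Counts summed to 70036872 in the PTH library and 66302211 in the untreated library. All 10 genes had a total of 20 or more counts over both libraries, the limit that 16408 rows passed. Of 10 osteoblast markers all were counted, Col1a1 with 2093308 counts in the PTH library and 1935295 in the untreated library. Sp7, an osteoblast transcription factor gene, was the osteoblast marker whose counting interval lay beyond 1.5-fold (though not when widened for an assumed variation between cultures), with 1974 counts in the PTH library and 4583 in the untreated library, a ratio of 0.418 (0.397 to 0.441). Ibsp was at a ratio of 0.774, Pth1r at 0.803 and Spp1 at 0.952. Dmp1, with only 49 and 74 counts, was at 0.643 (0.439 to 0.935). Col1a1 and Col1a2 were each at 1.05, Runx2 at 1.03 and Alpl at 1.02. Bglap, with 87 and 57 counts, was at 1.48 (1.05 to 2.11). The median log2 ratio of the osteoblast list was -0.02. Markers of other cells were mostly low. Of 6 macrophage and osteoclast markers 3 passed the count limit, as did 2 of 4 for cartilage, 2 of 4 for fat, 1 of 4 for muscle and 1 of 4 for endothelium. Ptprc, Adgre1, Acan, Col10a1, Adipoq, Plin1, Myod1, Ckm, Cdh5 and Kdr were listed at 0 in both libraries. The summed counts were 6672 in the PTH library and 5845 in the untreated library for the macrophage and osteoclast list, mostly from Ctsk, and 49382 and 30861 for cartilage, 55 and 46 for fat, 37 and 62 for muscle, and 89 and 71 for endothelium. The cartilage collagen gene Col2a1 had 38400 counts in the PTH library and 27597 in the untreated library, a ratio of 1.35 (1.33 to 1.37). The cartilage factor gene Sox9 had 10982 and 3264 counts, a ratio of 3.27 (3.14 to 3.40). Its interval lay beyond 1.5-fold, also when widened. The part of such markers in the AP-1 ratios was not tested. In bulk RNA, more transcript per cell and more cells with the transcript cannot be told apart.

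The comparison asks how the transcripts of each subunit differed after 1 h of PTH. Fos, Fosl1, Fosl2 and Junb had more reads in the PTH library, and Jun, Jund and Atf3 had fewer. Fos, the classical FOS subunit, was 6.17-fold higher, and Jun, its classical partner, was 6.73-fold lower. Fosb, Jdp2 and Batf3 were on neither side by the rule used. Under that rule a gene has more or fewer reads when its whole 95% exact interval of the ratio, which covers counting error only, lies beyond 1.5-fold. Thus 4 of the 10 genes had more reads, against 5.39% of the 16408 compared rows, and 3 had fewer, against 3.54%. Among 9163 protein-coding rows with a total of 1000 counts or more, which 9 of the 10 genes reached, the shares were 3.15% with more reads and 1.48% with fewer. The 10 genes and the lists below were chosen with earlier results of these data known. Such shares therefore describe them and do not test an excess. The median log2 ratio, with 0.5 count added to each library, was 0.03 over the 10 genes and 0.00 over all compared rows.

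**Figure D1:**
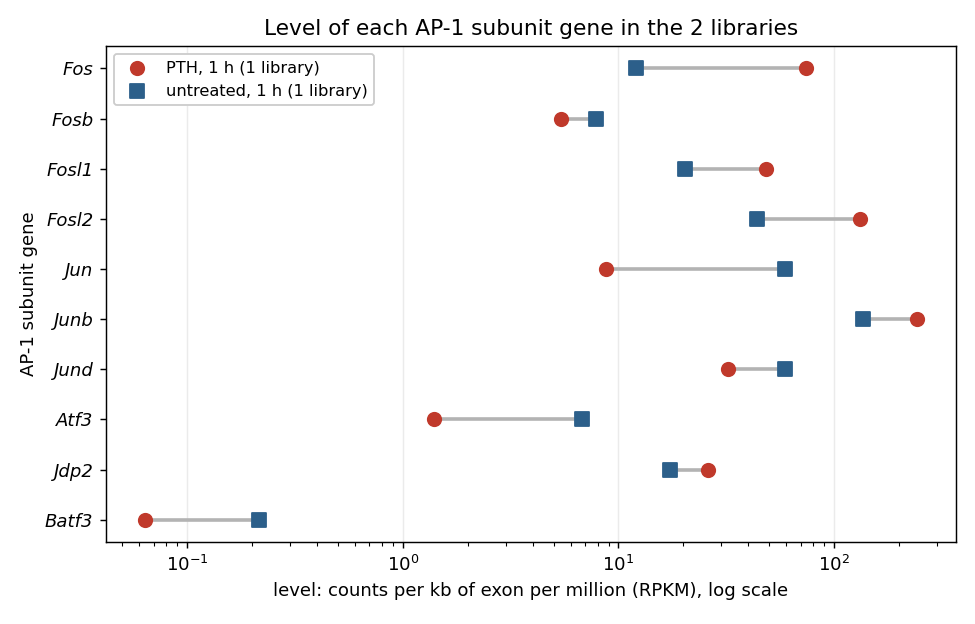
Level of each AP-1 subunit gene in RPKM, counts per kilobase of exon scaled for library size (log axis), with circles for the PTH library and squares for the untreated library. Fos stood at 74.3 and 12.0 RPKM and Jun at 8.80 and 59.2 RPKM in the PTH and untreated libraries, so the order of this pair was opposite in the 2 libraries.

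Among the FOS family, Fos (chr12:85473890-85477273) had 12081 counts in the PTH library and 1902 in the untreated library, a ratio of 6.17 (95% interval 5.88 to 6.48). Its ratio ranked 23 from the top among the 9163 protein-coding rows with a total of 1000 counts or more. Fosl2 (chr5:32135801-32157842), which encodes FRA-2, a subunit linked to osteoblast differentiation and collagen production in mice, had the most counts of the family. It stood at 88370 counts in the PTH library and 28628 in the untreated library, a ratio of 3.0 (2.96 to 3.04). Fosl1 (chr19:5447547-5455946), which encodes FRA-1, a subunit that promotes bone matrix formation in mice, had 6789 counts in the PTH library and 2771 in the untreated library, a ratio of 2.38 (2.28 to 2.49). Both FRA genes thus had more reads in the PTH library, from levels per length already above that of Fos in the untreated library. For Fosl1, reads of the overlapping gene named next could be part of that level, which was not tested. Exons of Ccdc85b on the opposite strand overlap 57.2% of the exonic length of Fosl1, and the sources used here do not give the strand setting of the counting. Ccdc85b itself had 6843 counts in the PTH library and 6113 in the untreated library, a ratio of 1.09 (1.05 to 1.13). Fosb (chr7:19302696-19310051), a subunit that also exists as the truncated form deltaFosB, was the FOS gene below 1. Its 2344 counts in the PTH library and 3290 in the untreated library gave a ratio of 0.692 (0.656 to 0.730), and its interval did not lie wholly beyond 1.5-fold.

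Among the JUN family the genes went both ways. Jun (chr4:95049034-95052222), the strongest activator of the family, had 1940 counts in the PTH library and 12678 in the untreated library, a ratio of 0.149 (0.142 to 0.156). This was the fourth lowest ratio among the 9163 protein-coding rows with a total of 1000 counts or more. Junb (chr8:84974484-84978718), a weaker activator that can restrain JUN and that supports osteoblast function in mice, had 38554 counts in the PTH library and 21017 in the untreated library, a ratio of 1.78 (1.75 to 1.81). Jund (chr8:70698949-70700616), usually described as a steadily transcribed family member, had 3725 counts in the PTH library and 6616 in the untreated library, a ratio of 0.547 (0.525 to 0.569). Jun and Jund have a single exon each. Annotated genes on the opposite strand overlap part of all JUN genes, and the counts of 2 of these partners were low. Junos, which covers 7.28% of Jun, had 21 counts in the PTH library and 25 in the untreated library, and Gm11175, which covers 52.6% of Jund, had 8 and 3 counts. Prdx2, which covers 7.52% of Junb, had 11948 counts in the PTH library and 9471 in the untreated library, a ratio of 1.23 (1.19 to 1.26).

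Among the other partners, Atf3 (chr1:191170296-191218039), a stress-inducible factor, had 207 counts in the PTH library and 977 in the untreated library, a ratio of 0.206 (0.176 to 0.239). Its ratio was the eighth lowest among the 9163 protein-coding rows. Jdp2 (chr12:85599027-85639878), which encodes the JUN dimerization protein, a repressor that promotes osteoclast formation in mice, had 3884 counts in the PTH library and 2503 in the untreated library. Its ratio of 1.51 (1.43 to 1.59) straddled the limit, so it stood at the edge of the rule. Batf3 (chr1:191097847-191108945), best known from dendritic cells, had 7 counts in the PTH library and 23 in the untreated library. Its ratio of 0.296 (0.107 to 0.711) had an interval too wide at this depth to place it beyond 1.5-fold.

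**Figure D2:**
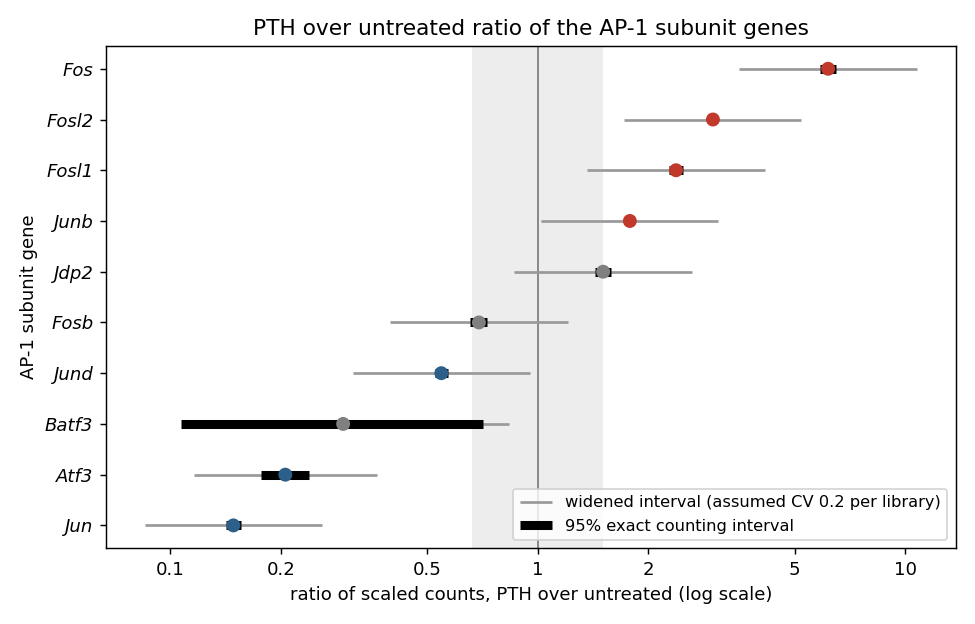
Ratio of scaled counts, PTH over untreated, for each gene on a log axis. Thick bars are 95% exact counting intervals, thin grey bars are intervals widened for an assumed coefficient of variation of 0.2 per library, and the shaded band is within 1.5-fold; Fos, Fosl2, Jun and Atf3 stayed beyond the band with the widened interval.

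Without replicates the spread between cultures is unknown, so the intervals were also widened for an assumed coefficient of variation of 0.2 in each library. Fos (3.54 to 10.8) and Fosl2 (1.72 to 5.22) then remained wholly above 1.5-fold, and Jun (0.0852 to 0.259) and Atf3 (0.116 to 0.366) wholly below it. Fosl1 (1.36 to 4.15), Junb (1.02 to 3.10) and Jund (0.314 to 0.953) no longer did.

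**Figure D3:**
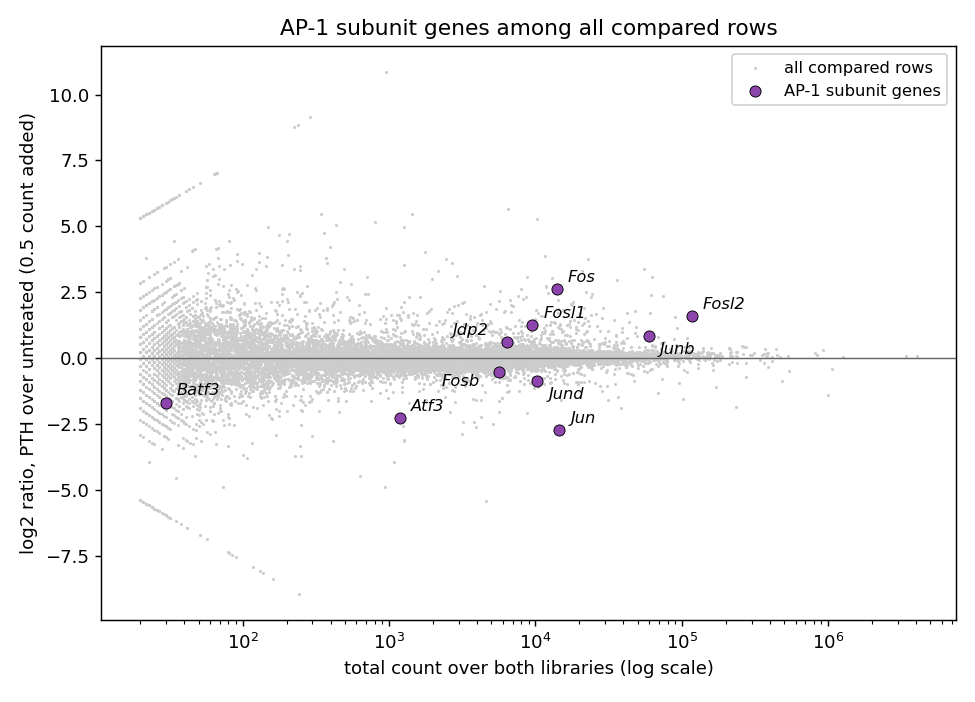
Log2 ratio, PTH over untreated with 0.5 count added, against the total count over both libraries (log axis), with all 16408 compared rows in grey and the 10 AP-1 subunit genes in purple. Jun at -2.75 and Fos at 2.62 lie at similar total counts, 14618 and 13983, and Batf3 lies among the rows with few counts.

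Levels are compared between genes only per length, as RPKM over the union of annotated exons. Junb was the highest gene in both libraries, at 242 RPKM in the PTH library and 136 RPKM in the untreated library. In the PTH library Fosl2 (132 RPKM), Fos (74.3), Fosl1 (48.3), Jund (32.3) and Jdp2 (26.1) followed, ahead of Jun (8.80), Fosb (5.43), Atf3 (1.39) and Batf3 (0.0634). In the untreated library Jun (59.2 RPKM) and Jund (59.1) came after Junb, then Fosl2 (44.0), Fosl1 (20.3), Jdp2 (17.4), Fos (12.0), Fosb (7.85), Atf3 (6.75) and Batf3 (0.214). Jun and Jund in the untreated library were the only neighbours in either order whose 95% exact Poisson intervals overlapped, at 58.2 to 60.2 and 57.7 to 60.5 RPKM. On union lengths Jun thus ranked 7 of 10 in the PTH library and 2 of 10 in the untreated library, while Fos ranked 3 and 7. The order of genes at near levels depends on the length used, which the counting intervals do not cover. Fosl2 has 9680 bases of union exons but 6537 in its longest transcript, and Fosb 6243 and 3782, whereas Jun has 3189 in both. Ranks on the longest transcript are not given here. Per length, Fos stood at 8.44 times the level of Jun in the PTH library and at 0.203 times in the untreated library. Junb stood at 27.5 times the level of Jun in the PTH library and at 2.30 times in the untreated library.

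The summed level of the 10 genes was 571 RPKM in the PTH library and 363 RPKM in the untreated library, a ratio of 1.57. The FOS family supplied 45.5% of it in the PTH library and 23.2% in the untreated library, and the JUN family 49.6% and 70.1%. FOS family transcripts summed to 260 RPKM in the PTH library and 84.2 RPKM in the untreated library, while JUN family transcripts summed to 283 and 254 RPKM. The JUN family sum hence differed little, at a ratio of 1.11, although the counting interval of each of its genes lay beyond 1.5-fold in one direction or the other. With the widened interval only Jun did. Within the sum of all 10 genes, Jun held 1.54% in the PTH library and 16.3% in the untreated library, and Jund 5.66% and 16.3%. Junb held 42.4% and 37.5%, Fosl2 23.1% and 12.1%, and Fos 13.0% and 3.32%. The FOS to JUN family ratio, which needs no scaling between libraries, was 0.918 in the PTH library and 0.331 in the untreated library, 2.77 times apart. On counts without length scaling it was 2.48 and 0.908, 2.73 times apart, so which family was the larger in the PTH library depended on the length scaling. With Fos left out it was 0.655 and 0.284, 2.31 times apart, and with Jun left out 0.947 and 0.432, 2.19 times apart, so neither gene alone made up the difference. These shares are of transcripts, and no protein was measured.

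**Figure D4:**
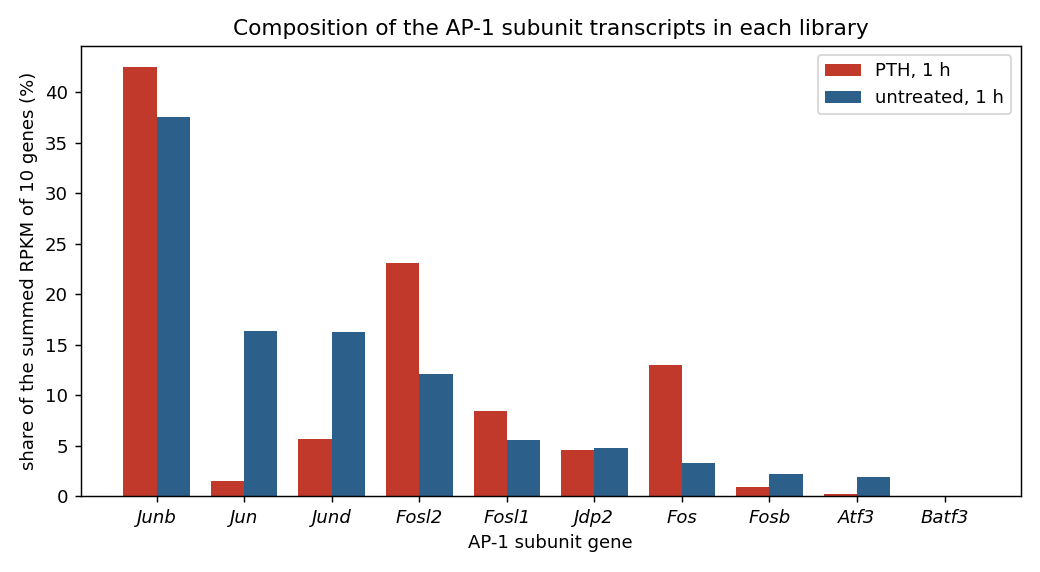
Share of each gene in the summed RPKM of the 10 AP-1 subunit genes, with red bars for the PTH library and blue bars for the untreated library. Junb was the largest share in both at 42.4% and 37.5%, Jun stood at 1.54% and 16.3%, and Fos at 13.0% and 3.32%.

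Positions in the genome were compared next. Fos and Jdp2 are adjacent protein-coding genes on chromosome 12, 121754 bases apart, and Batf lies 46791 bases beyond Jdp2. In this cluster Fos had a ratio of 6.17, Jdp2 one of 1.51, and Batf was listed at 0 in both libraries. Atf3 and Batf3 lie near each other on chromosome 1 with Fam71a between them, which was also at 0 in both libraries. The nearest protein-coding genes on either side of the 10, other than the 10 themselves, numbered 17, of which 14 had enough counts. None of the 14 had a whole interval beyond 1.5-fold, a count too small to set apart from the shares of 5.39% and 3.54% over all compared rows. Their ratios had a median of 1.09 and ran from 0.681 for Nsl1, next to Batf3, to 2.35 (1.44 to 3.95) for Rtn2, next to Fosb. Tmed10, on the other side of Fos, had 11347 counts in the PTH library and 9834 in the untreated library, a ratio of 1.12 (1.09 to 1.15). Mysm1, next to Jun, had 2037 and 1978 counts, a ratio of 1.00 (0.94 to 1.06).

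The pentamer ATTTA, the core of AU-rich elements that mark short-lived messages, was counted in the 3′ UTR of each gene's longest coding transcript. Fosl2 held 8 copies, Fos and Jun 4 each, Atf3 3, Junb 2, and Fosb, Fosl1 and Jund 1 each, while Jdp2 and Batf3 held none. Over 12591 protein-coding genes with enough counts the median was 2 copies, and 29.4% held 4 or more. Per kilobase of 3′ UTR, Fos had 4.91 copies, Junb 4.12, Jun 3.24 and Atf3 2.53, against a median of 1.29 over those genes. Jund had 1.88, Fosl2 1.72 in its long 3′ UTR of 4653 bases, Fosl1 1.57 and Fosb 0.466. Genes above and below a ratio of 1 were both among those with the most copies per kilobase.

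For the 2 extreme genes, the protein-coding rows with the nearest log2 ratio were looked up among those with total counts within 1.5-fold, a likeness over 2 libraries only. The nearest to Fos among 1903 rows were Synpo2, an actin-associated protein gene, at a ratio of 6.49 (6.15 to 6.85), and Hlx, a homeobox gene, at 6.68 (6.33 to 7.05). Jun had no near match among 1833 rows. The nearest was Egr2, a zinc finger immediate-early gene, at a ratio of 0.333 (0.321 to 0.346), followed by Socs5, a suppressor of cytokine signalling gene, at 0.456 (0.437 to 0.475), against 0.149 for Jun.

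Other bZIP genes were compared with the 10 as lists. The shares over all compared rows were 5.39% with more reads and 3.54% with fewer. Of 9 further BATF and MAF family genes 5 had enough counts, 2 had more reads and none fewer, with a median log2 ratio of 0.60. Maf, which encodes c-MAF, had 8626 counts in the PTH library and 4501 in the untreated library, a ratio of 1.86 (1.79 to 1.93). Mafk, which encodes a small MAF protein without an activation domain, had 7829 and 4511 counts, a ratio of 1.69 (1.62 to 1.75). Of 7 other bZIP partner genes 1 had more reads and 1 fewer, and the list median was a log2 ratio of -0.19. Ddit3 stood on 2 rows, of which 1 was at 0 in both libraries. Nfe2l2, which encodes the oxidative stress factor NRF2, had 12201 counts in the PTH library and 4824 in the untreated library, a ratio of 2.46 (2.38 to 2.54). Creb5 had 683 and 1139 counts, a ratio of 0.582 (0.529 to 0.641). None of these 4 genes stayed beyond 1.5-fold with the widened interval.

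Genes that regulate AP-1 passed the rule about as often as all compared rows, at 1 gene in each of 3 lists, against 5.39% of all rows with more reads and 3.54% with fewer. The list of MAP kinases and their kinases also holds Rps6ka1 and Rps6ka3, ribosomal S6 kinase genes. Kinases of these pathways phosphorylate FOS and JUN proteins or the factors that induce them. Of the 17 counted genes of this list 1 had more reads and none fewer, with a median log2 ratio of -0.03. Map2k3, which encodes an activator of p38, had 12396 counts in the PTH library and 12552 in the untreated library, a ratio of 0.959 (0.935 to 0.983). The gene with more reads, named after its value was seen, was Map3k1, an upstream kinase of the JNK pathway, at 1.77 (1.55 to 2.03). Of 10 genes for factors that act on the Fos promoter 1 had fewer reads and none more, with a median log2 ratio of -0.02. Srf, which encodes the serum response factor, had 8731 counts in the PTH library and 19982 in the untreated library, a ratio of 0.424 (0.414 to 0.435). Mrtfa, an actin-regulated SRF coactivator gene, was at 1.09 (1.05 to 1.12). Of 11 cofactor and turnover genes 1 had fewer reads and none more, with a median log2 ratio of 0.01. Cop1, a ubiquitin ligase gene whose product targets JUN, was at a ratio of 0.969 (0.943 to 0.995). The gene with fewer reads, named after its value was seen, was Trib1, a COP1-binding pseudokinase gene, at 0.586 (0.561 to 0.613). With the widened interval Map3k1, Srf and Trib1 were no longer beyond 1.5-fold.

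Genes often described as AP-1 targets had the widest range of these lists. Of 17 counted targets 8 had more reads and 1 had fewer, against 5.39% and 3.54% of all compared rows. The list was chosen with earlier results of these data known, so these shares are not a test of an excess. The median log2 ratio of the list was 0.33. Il6 had 1237 counts in the PTH library and 38 in the untreated library, a ratio of 31.6 (22.9 to 44.9). Il11, a relative of Il6 in signalling, had 350 and 24 counts, a ratio of 14.2 (9.36 to 22.4). The chemokine gene Ccl2 had 7243 and 1408 counts, a ratio of 5.00 (4.72 to 5.29), and Lif, a cytokine gene, 14359 and 3423 counts, a ratio of 4.07 (3.92 to 4.23). The other 4 with more reads, named after their values were seen, were Plau (3.14), Plaur (2.54), Ptgs2 (1.98) and Timp1 (1.58). Of the 8, Plaur, Ptgs2 and Timp1 were no longer beyond 1.5-fold with the widened interval. Mmp13, a collagenase gene known as a PTH and AP-1 target in osteoblasts and singled out after its value was seen, had 2662 and 2697 counts, a ratio of 0.958 (0.908 to 1.01). Several of these genes are also targets of other factors, and which factor acted on them was not tested.

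**Figure D5:**
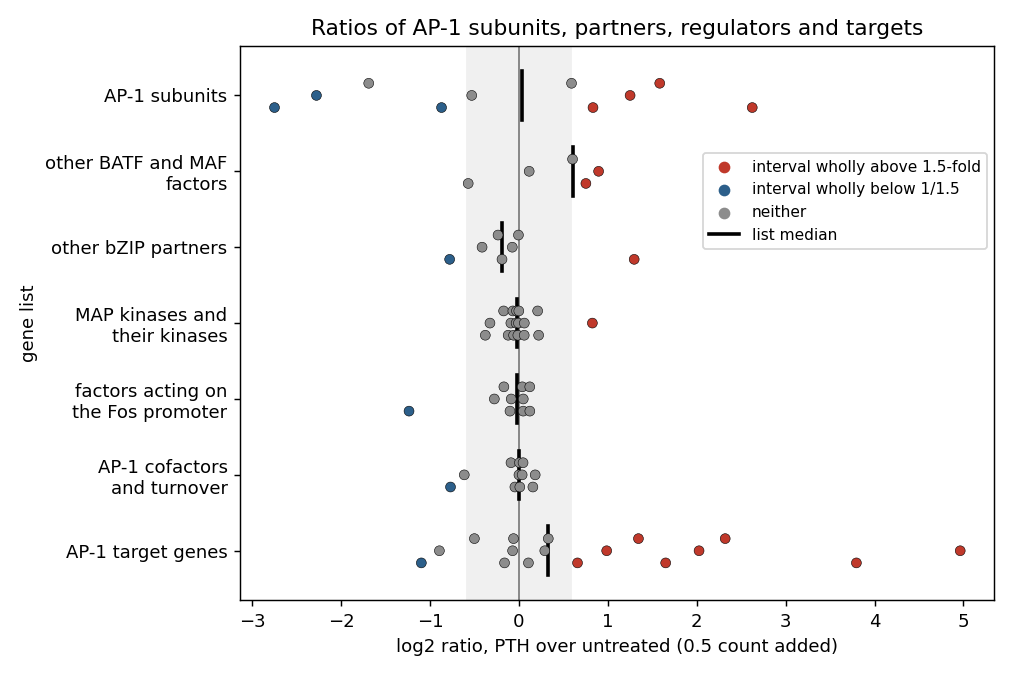
Log2 ratio, PTH over untreated with 0.5 count added, of every counted gene in 7 lists. Red points have a whole interval above 1.5-fold, blue points below it and grey points neither, and black lines are list medians. The AP-1 subunits run from -2.75 to 2.62 around a median of 0.03, whereas 16 of 17 genes in the list of MAP kinases and related kinases are grey.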

How the data were processed

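RNA of MC3T3-E1 cells was sequenced in 1 PTH and 1 untreated library. The authors deposited whole-number read counts per gene, not normalised, with 1 column per library, assigned to its library by the name in the labels. HISAT2 and the mm10 build are named per the submitters' processing notes; the sources used here give no version, counting tool, annotation or strand setting. Scaling used edgeR 4.0.16 TMM effective library sizes in R 4.3.3 on rows with a total of 20 or more counts. With 1 library per group edgeR's test has no residual degrees of freedom and could not be fitted. Ratios of scaled counts (PTH to untreated) carry exact 95% Clopper-Pearson intervals (Python 3.11.15, scipy 1.17.1, numpy 2.4.6, pandas 2.3.3, with plots by matplotlib 3.10.9). The intervals were tested on simulated Poisson counts, which hold no variation between cultures. Intervals cover counting error only; PCR copies are not independent molecules. A gene is called when the whole interval lies beyond 1.5-fold. Gene coordinates and exonic lengths come from GENCODE M21 (GRCm38, the assembly also called mm10), with entries for 55141 of the identifiers. RPKM is the count per kilobase of exonic length, scaled for library size. Promoters come from RefSeq (GRCm38.p6).

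The members and lists were chosen with earlier results of these data known. Named are all 10 members, up to 4 genes past the rule from each other list by the interval bound farthest from 1 (or the 2 most counted where under 2 pass), the neighbouring genes, and the 2 genes nearest in ratio to Fos and to Jun. Exceptions are marked, and a few genes that the rule or a small count would name are not reported here. Alternatives were total-count, DESeq2 1.42.0 and upper-quartile scaling, other count filters, a fold limit of 2, widened intervals, other lengths and left-out genes.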

Additional observations from a re-analysis of the deposited data

How the results depend on the processing

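The directions of all 10 ratios held under the 5 scaling and filter alternatives, except that Batf3 did not pass a filter of 100 counts and gave no value there. The median log2 ratio of all compared rows ran from -0.04 with total counts to 0.00, and the calls of the other 9 genes were the same in these alternatives. Over them Fos ran from 6.01 to 6.18, Jun from 0.145 to 0.149 and Jdp2 from 1.47 to 1.51. With a fold limit of 2, 3 genes had more reads (Junb was lost) and 2 fewer (Jund was lost). With the interval widened for a coefficient of variation of 0.2, 2 of the genes had more reads and 2 fewer. Leaving out rows that share 20% or more of their exonic length, an alternative chosen after seeing the data that drops Fosl1 and Jund, left 3 and 2. Counts over all compared rows in these settings are given below.

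Over all 16408 compared rows, 884 had more reads and 581 fewer. These counts were 1386 and 983 of 23527 rows with no count filter, and 543 and 307 of 13079 with a filter of 100. Of the 16408 rows, they were 517 and 262 with a fold limit of 2, and 474 and 267 with the widened interval. With total counts they were 840 and 643 of 16408. Leaving out rows that share 20% or more of their exonic length left 775 and 491, of a smaller number of rows that is not given here. The FOS to JUN family ratio depended on length scaling, at 2.48 in the PTH library and 0.908 in the untreated library on counts alone, and at 0.973 and 0.390 with the longest transcript of each gene. It was 0.947 and 0.432 without Jun, 0.655 and 0.284 without Fos, and 0.843 and 0.327 without Fosl1 and Jund, also chosen after seeing the data. No paired analysis was possible because each condition has 1 library, and for the same reason no replicate could be left out. The depth limits what can be said of Batf3, with 7 and 23 counts.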
